A study of Mus musculus with 141 samples.

Results

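The expression of 10 genes of milk and its secretion was described in inguinal white adipose tissue (iWAT), the subcutaneous fat pad of the mouse groin: the casein genes *Csn1s1*, *Csn1s2a*, *Csn2* and *Csn3*, the whey genes *Wap* and *Lalba*, *Wfdc18*, *Glycam1*, *Btn1a1* and the iodide transporter gene *Slc5a5*. They were chosen by name, and all 10 were found among the 36558 genes of the count and TPM tables, where TPM, a transcript level, corrects for transcript length and library total. RNA-seq libraries came from the Hybrid Mouse Diversity Panel, a collection of inbred strains, with 67 libraries labelled female and 74 labelled male from 82 strains. Each library was 1 mouse of its sex and strain. Both sexes were present in 59 strains, 8 strains had a female library alone and 15 a male library alone. By strain set, the BXD strains gave 32 female and 34 male libraries, the AXB and BXA strains 9 and 11, the BXH strains 2 and 3, the CXB strains 3 and 3, and the remaining inbred strains 21 and 23. All mice carried only the genome of their strain. In BXD24/TyJ-Cep290<rd16>/J, with a female and a male library, this includes, by the strain name, the rd16 allele of *Cep290*. Both sexes received the HF/HS diet, rich in fat and sucrose, for 8 weeks, starting at 8 weeks of age. A 4 h fast preceded collection. Estrous stage and reproductive history were not given in the sources used here.

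Caseins are the main proteins of mouse milk and are secreted by the alveolar cells of the mammary epithelium, where prolactin acts through its receptor, the kinase JAK2 and the transcription factor STAT5 to raise their transcription. In the mouse, the inguinal fat pad of the female holds a mammary gland, and that of both sexes holds a lymph node. The sodium/iodide symporter encoded by *Slc5a5* moves iodide into thyroid cells and into the lactating mammary gland, from which iodide passes into milk.

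The shallowest library held 6269154 estimated counts, the median library 30233245 and the deepest 78562648, and 3 counts, taken as the floor of detection, corresponded to 0.0992 CPM (counts scaled to the library total) at that median. *Uty*, *Kdm5d*, *Eif2s3y* and *Ddx3y*, 4 genes of the Y chromosome, summed to 164 to 581 CPM in 73 of the male libraries, and to 5.66 to 35.7 CPM in 65 of the female ones. This sum went against the label in 3 libraries, namely the NZW/LacJ library labelled male, at 9.36 CPM, and the BXD34/TyJ and BXD69/RwwJ libraries labelled female, at 794 and 372 CPM. In BXD69/RwwJ all 4 genes were at male levels (*Ddx3y* 196 CPM). In BXD34/TyJ, which was also the shallowest library, the genes disagreed. *Uty* (701 CPM) and *Kdm5d* (86.5 CPM) made up nearly all of the sum. Both lay above every male library, where they ended at 56.3 and 81.3 CPM, so they were not at male levels either. *Ddx3y* at 2.28 CPM and *Eif2s3y* at 3.67 CPM lay below every male library other than NZW/LacJ, where they began at 72.5 and 24.6 CPM. Whether the BXD34/TyJ library fits its label is thus unsettled, and "against the label" below refers to the sum alone. The sex and BXD comparisons and the relations to the epithelial list are given with and without these libraries. Other results, among them the genes most alike to a member and the relations to other lists, keep them under their labels unless stated. The 6 adipocyte genes checked, including *Adipoq* and *Plin1*, summed to between 5845 and 64121 TPM in female and between 12107 and 65177 TPM in male libraries, so the labelled tissue had its defining markers throughout. Because the samples are bulk tissue, fewer cells of a type and less RNA per cell cannot be told apart.

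On the GRCm38 build, the 4 casein genes lie on chromosome 5 within 266 kb, from the start of *Csn1s1* at chr5:87666208 to the end of *Csn3* at chr5:87932665, with *Csn2* on the minus strand and the other three on the plus strand. *Wap* lies at chr11:6635482-6638637, *Wfdc18* at chr11:83709015-83711348, *Lalba* at chr15:98480400-98482721, *Glycam1* at chr15:103562759-103565081, *Btn1a1* at chr13:23456992-23465901 and *Slc5a5* at chr8:70882889-70892757. Promoter windows of RefSeq (GRCm38.p6), from 250 bases before to 50 bases after the annotated start, were present for 8 of the 10 genes, without *Csn3* and *Btn1a1*. They were searched on both strands for TTCNNNGAA, a palindrome of the kind STAT5 binds. It occurred in 4 of the 8 windows, and in 2726 of 32851 windows of the same length over all genes (8.30%). The 4 windows with a match and that of *Slc5a5* are shown 5′ to 3′ along the strand of the gene, with the match in capitals.
Csn1s1: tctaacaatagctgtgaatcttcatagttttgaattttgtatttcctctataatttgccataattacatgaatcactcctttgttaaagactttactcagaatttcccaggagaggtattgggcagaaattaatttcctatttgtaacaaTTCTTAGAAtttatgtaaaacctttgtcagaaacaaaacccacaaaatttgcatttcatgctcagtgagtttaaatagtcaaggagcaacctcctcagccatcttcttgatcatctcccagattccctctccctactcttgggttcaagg
Csn2: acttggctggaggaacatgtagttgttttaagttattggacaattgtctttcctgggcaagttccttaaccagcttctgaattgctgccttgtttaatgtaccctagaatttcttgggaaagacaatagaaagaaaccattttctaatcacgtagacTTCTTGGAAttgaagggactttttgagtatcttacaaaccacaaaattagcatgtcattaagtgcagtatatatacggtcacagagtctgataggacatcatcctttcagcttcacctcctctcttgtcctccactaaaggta
Csn1s2a: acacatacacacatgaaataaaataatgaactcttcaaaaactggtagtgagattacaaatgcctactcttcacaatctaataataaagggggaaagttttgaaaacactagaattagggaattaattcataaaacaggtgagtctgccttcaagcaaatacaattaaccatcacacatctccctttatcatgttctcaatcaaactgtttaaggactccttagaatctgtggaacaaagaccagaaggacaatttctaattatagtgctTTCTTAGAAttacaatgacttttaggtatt
Glycam1: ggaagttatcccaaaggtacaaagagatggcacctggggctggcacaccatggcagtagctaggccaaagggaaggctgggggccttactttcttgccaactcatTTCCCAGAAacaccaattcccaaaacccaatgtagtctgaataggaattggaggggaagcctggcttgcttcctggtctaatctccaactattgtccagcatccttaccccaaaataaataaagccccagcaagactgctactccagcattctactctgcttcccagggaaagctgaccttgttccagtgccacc
Slc5a5: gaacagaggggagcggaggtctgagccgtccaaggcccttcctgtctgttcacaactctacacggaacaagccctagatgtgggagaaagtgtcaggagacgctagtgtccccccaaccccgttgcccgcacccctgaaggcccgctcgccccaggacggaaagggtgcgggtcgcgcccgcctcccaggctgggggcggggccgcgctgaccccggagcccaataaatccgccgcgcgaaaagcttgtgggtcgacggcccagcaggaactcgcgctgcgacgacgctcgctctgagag
The match began at position -100 from the start in *Csn1s1* (window chr5:87665958-87666257), at -93 in *Csn2* (chr5:87699376-87699675, minus strand) and at -145 in *Glycam1* (chr15:103565032-103565331, minus strand). In *Csn1s2a* (chr5:87774200-87774499) it lay 20 bases after the RefSeq start, which is upstream of the gene start in the annotation used for the positions above. The windows of *Slc5a5* (chr8:70892708-70893007, minus strand), *Wap*, *Lalba* and *Wfdc18* did not hold these letters. A match of this kind is a description of the sequence and not of binding.

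All levels below are TPM. *Csn3*, the gene of kappa-casein, which keeps casein micelles in suspension, was the one casein found at 3 counts or more in every female library. Its lowest, median and highest levels were 0.670, 101.7 and 1340 TPM in females and 0, 0.795 and 72.5 TPM in males. Without the libraries whose Y-linked sum went against the label, the lowest female library (AXB12/PgnJ) had 8.68 TPM and the highest male library (PL/J) 48.5 TPM, so the sexes overlapped at their margins.

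The 3 calcium-sensitive caseins were low in most females and very high in a few. *Csn1s1*, an alpha-casein gene, ranged from 0 through a median of 0.884 to 5059 TPM in females, with 3 counts or more in 58 of 67, and from 0 through 0.0968 to 39.6 TPM in males, with 3 counts or more in 26 of 74. *Csn2*, the beta-casein gene, ranged from 0 through 0.461 to 10037.5 TPM in females (41 of 67 at the floor or above) and from 0 through 0 to 78.2 TPM in males (20 of 74). *Csn1s2a*, another alpha-casein gene, ranged from 0 through 0.172 to 7178 TPM in females (34 of 67) and from 0 through 0 to 75.5 TPM in males (8 of 74). For each of these 3 genes many female libraries lay within the male range, and the highest male library was the same, that of BXD15/TyJ. *Csn1s1* reached 100 TPM in 10 female libraries, *Csn2* in 10, *Csn1s2a* in 8 and *Csn3* in 35. No male library reached 100 TPM of any casein.

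Of the whey genes, *Wap*, which encodes whey acidic protein, was the least detected member, with 3 counts or more in 8 of 67 female and 1 of 74 male libraries. Its highest levels were 59.4 TPM in females and 0.212 TPM in males, and both medians were 0. *Lalba*, which encodes alpha-lactalbumin, the regulatory subunit of lactose synthase, ranged from 0.0719 through 1.45 to 308 TPM in females and from 0 through 0.399 to 10.1 TPM in males. Unlike the 3 caseins above, *Lalba* was at or above 3 counts in most males, 59 of 74, and its sexes overlapped widely. *Wfdc18*, a gene of the whey acidic protein family, ranged from 0.226 through 62.4 to 2163 TPM in females and from 0 through 0.353 to 75.3 TPM in males. With the libraries against their label set aside, *Wfdc18* began at 4.88 TPM in females and ended at 29.01 TPM in males.

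*Btn1a1* encodes butyrophilin, a protein of the milk fat globule membrane. It ranged from 0 through 6.84 to 100 TPM in females and from 0 through 0.0152 to 39.2 TPM in males. The male value of 39.2 TPM was the NZW/LacJ library, and without the libraries against their label the male range ended at 2.72 TPM and the female range began at 0.779 TPM. *Glycam1* encodes a mucin-like glycoprotein that is secreted into milk and is also made by the high endothelial venules of lymph nodes, where it carries ligands of L-selectin. It ranged from 0 through 99.7 to 2797 TPM in females and from 0 through 0.241 to 1900 TPM in males, where the highest library again was NZW/LacJ and the next, PL/J, had 274 TPM.

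*Slc5a5* ranged from 0 through 9.50 to 120 TPM in the 67 female libraries and from 0 through 0.0257 to 38.6 TPM in the 74 male libraries. The 2 female libraries at 0 were BXD34/TyJ, the shallowest library, and BXD69/RwwJ, and the highest male library was NZW/LacJ. In the 65 female libraries other than these 2, female levels began at 0.840 TPM, and of the 73 other male libraries 1 lay above that value, PL/J at 17.03 TPM, with the next male library, BXD15/TyJ, at 0.228 TPM. Of the 74 male libraries, 29 had 3 counts or more of *Slc5a5*.

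**Figure D1:**
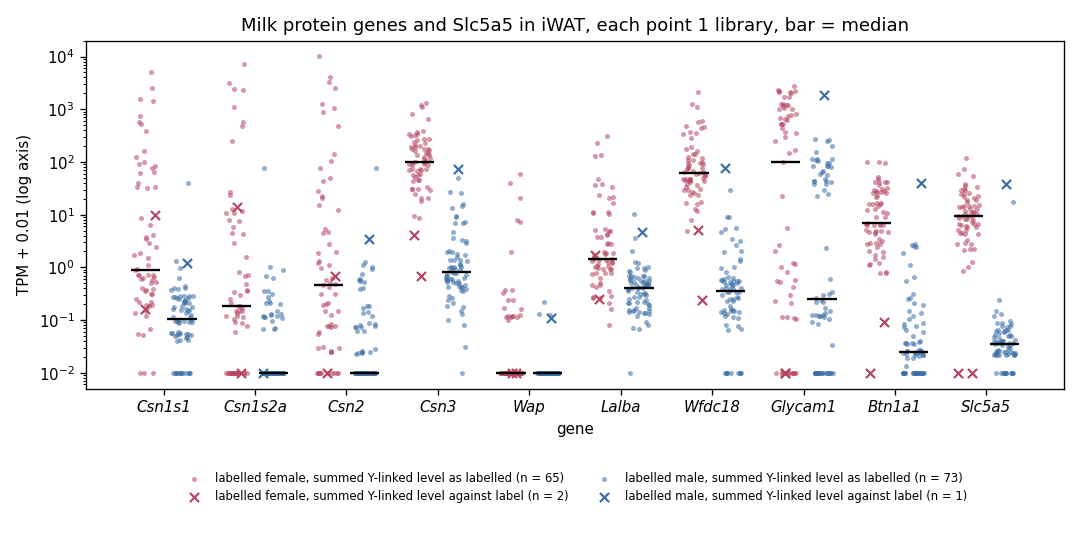
Level of each gene (TPM + 0.01, log axis) in each library, 67 labelled female in red and 74 labelled male in blue, with bars at the medians and crosses at the 3 libraries whose summed Y-linked level went against the label. Female points of *Csn1s1*, *Csn1s2a* and *Csn2* reach from 0 to 5059 TPM or more, whereas those of *Csn3* and *Slc5a5* sit in a narrower band, mostly above the male points.

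Ordered by the median of the 67 female libraries, *Csn3* was followed by *Glycam1*, *Wfdc18*, *Slc5a5*, *Btn1a1*, *Lalba*, *Csn1s1*, *Csn2*, *Csn1s2a* and *Wap*. Some neighbours in this order did not differ beyond their spread. *Csn3* was above *Glycam1* in 35 libraries and below it in 32, *Slc5a5* was above *Btn1a1* in 36 and below it in 30, and *Lalba* was above *Csn1s1* in 37 and below it in 30. Clearer steps were those from *Wfdc18* to *Slc5a5* (above in 63, below in 4) and from *Btn1a1* to *Lalba* (above in 58, below in 9). *Glycam1* had the higher median than *Wfdc18* but was below it in 38 of 67 libraries.

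The leading casein changed between libraries. *Csn3* was the highest casein in 58 of 67 female libraries. In 7 libraries (CBA/J, DBA/2J, BXD56/RwwJ, SWR/J, KK/HlJ, SM/J and PL/J) it was *Csn2*, and in 2 (SJL/J and BXD34/TyJ) it was *Csn1s2a*. The 4 female libraries with the largest sums of the 10 genes were all among these.

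A few strains held much of the milk protein RNA. The female SWR/J library alone had 27194 TPM over the 10 genes, or 2.72% of all its TPM, against a median of 688 TPM over the 67 female libraries. In SWR/J, *Csn2* was at 10037.5 TPM, *Csn1s2a* at 7178 TPM and *Csn1s1* at 5059 TPM, and it ranked among the highest 3 libraries for 8 of the 10 genes. KK/HlJ followed with a sum of 12660 TPM, SJL/J with 11192 TPM (1.12% of TPM) and BXD56/RwwJ with 9560 TPM. These 4 libraries together held 50.5% of the summed TPM of the 10 genes over all females.

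The genes differed in how far they were concentrated in a few libraries. The 3 highest libraries held 86.02% of the female TPM of *Wap*, 72.2% of that of *Csn2* and of *Csn1s2a*, 66.4% for *Csn1s1* and 57.7% for *Lalba*. They held 38.3% for *Wfdc18*, 28.3% for *Csn3*, 25.1% for *Btn1a1*, 24.3% for *Slc5a5* and 20.3% for *Glycam1*. On the log2(TPM + 0.1) scale, the SD over female libraries was 4.73 for *Csn2*, 4.49 for *Csn1s2a* and 4.27 for *Csn1s1*, but 1.86 for *Csn3* and 1.81 for *Slc5a5*. Without the female libraries against their label it was 4.78 for *Csn2*, 1.57 for *Csn3* and 1.43 for *Slc5a5*. The largest SD over all female libraries was that of *Glycam1*, at 5.90.

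The strains at the top were not the same for each gene. BXD56/RwwJ had the highest *Lalba* (308 TPM) and *Btn1a1* (100 TPM), KK/HlJ the highest *Wfdc18* (2163 TPM), and SJL/J the highest *Glycam1* (2797 TPM). SM/J was second in *Wfdc18* at 1254 TPM but had 1.04 TPM of *Lalba*. The highest *Slc5a5* was in I/LnJ (120 TPM), A/J (74.9 TPM), C57BL/6J (59.3 TPM), NZW/LacJ (54.3 TPM) and CE/J (38.7 TPM), none of which was among the highest 5 for *Csn1s1*, *Csn1s2a* or *Csn2*. With 1 library per sex and strain, a difference between single strains has no replicate check.

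**Figure D2:**
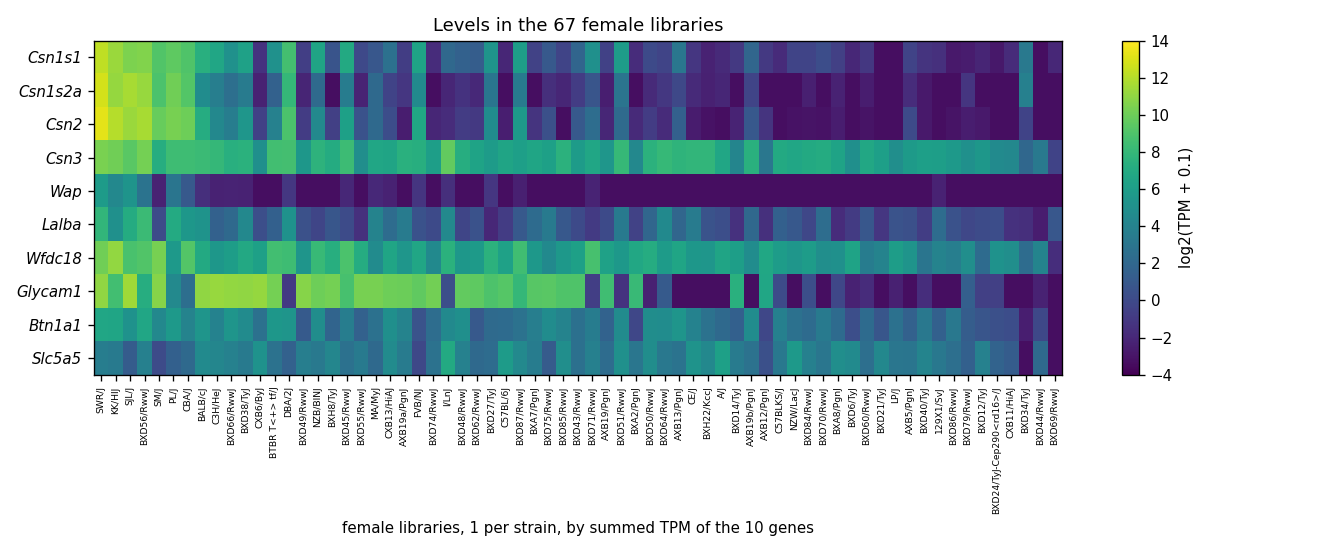
Level of each gene as log2(TPM + 0.1) in the 67 female libraries, ordered from left to right by the summed TPM of the 10 genes. High *Csn1s1*, *Csn1s2a* and *Csn2* appear mainly in the libraries at the left, *Csn3* and *Wfdc18* are high through most of the row, and *Slc5a5* does not follow the order of the caseins.

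The comparison of female with male libraries asked whether these genes differ by sex in iWAT of mice sharing a strain. In the 59 matched strains, edgeR's quasi-likelihood test with strain and sex in the model called 6 of the 6 members it tested as higher in female libraries (adjusted p under 0.05), where 28.4% of all 16765 genes tested were called higher and 29.8% lower (4759 and 4988 genes). With library totals in place of TMM that split was 7410 higher and 2774 lower, and the 6 members were still called higher. *Slc5a5* had the largest log2FC (female vs. male), 8.23 (SE 0.340, adjusted p 2.22e-29). *Btn1a1* followed at 7.25 (SE 0.448, adjusted p 9.13e-22), *Wfdc18* at 6.90 (SE 0.430, adjusted p 1.40e-21) and *Csn3* at 6.30 (SE 0.385, adjusted p 5.69e-22). *Glycam1* at 4.74 (SE 0.941, adjusted p 2.25e-05) and *Lalba* at 2.82 (SE 0.381, adjusted p 5.18e-09) had the smaller differences.

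*Csn1s1*, *Csn1s2a*, *Csn2* and *Wap* did not pass the filter on low counts and were not tested. A gene low in males could pass that filter only by being high in females, so the count of 6 describes those that passed and not all 10 genes. Without the filter, 10 of 10 were called higher, where 15% of 32258 genes were, and the log2FC was 7.78 for *Csn1s1*, 9.55 for *Csn1s2a*, 7.64 for *Csn2* and 5.01 for *Wap*, values that depend on the prior count because many libraries were at 0. The median log2FC of the 6 tested members was 6.60, against 0.0115 over all genes tested.

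Leaving out the strain with a library against its label gave a log2FC of 8.39 (SE 0.303) for *Slc5a5*, 7.38 for *Btn1a1*, 7.01 for *Wfdc18*, 6.38 for *Csn3*, 4.90 for *Glycam1* and 2.92 for *Lalba*, all still called. Leaving out PL/J gave 8.39 (SE 0.274) for *Slc5a5*, and leaving out the 4 strains highest in caseins gave 2.42 for *Lalba* and 6.00 for *Csn3*, again all called. Fitted with the same libraries but no pairing by strain (no replicate block), all 6 remained called, at 3.94 for *Slc5a5*, 4.36 for *Btn1a1*, 5.96 for *Wfdc18*, 5.34 for *Csn3*, 2.95 for *Glycam1* and 4.99 for *Lalba*. The value of *Lalba* thus rose and those of *Slc5a5*, *Btn1a1* and *Glycam1* fell by more than 1.5 times without the strain term.

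Within the 59 strains, the female library was above the male library in 59 strains for *Csn3*, and in 58 for *Wfdc18*, *Btn1a1* and *Slc5a5*. For *Wfdc18* and *Btn1a1* the exception was NZW/LacJ, whose library labelled male goes against its label, and for *Slc5a5* it was PL/J. The mean difference in log2(TPM + 0.1) was 6.38 ± 0.333 (SE, n = 59) for *Csn3*, 7.20 ± 0.389 for *Wfdc18*, 5.66 ± 0.307 for *Btn1a1* and 6.01 ± 0.257 for *Slc5a5*. The SD of the difference over strains was 2.56, 2.99, 2.35 and 1.975 in the same order, below each mean. The permutation p, which tests a mean difference of 0 and not its size against that SD, was 1e-05 for each. That is the smallest that 100000 two-sided sign permutations can give.

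For the other 6 members the direction varied more. *Csn1s1* was higher in females in 53 strains and in males in 6 (mean 4.31 ± 0.568), *Csn2* in 48 and 7 with 4 equal (3.78 ± 0.626), and *Csn1s2a* in 42 and 8 with 9 equal (3.18 ± 0.587). *Lalba* was higher in females in 53 strains and in males in 6 (2.65 ± 0.347), and *Wap* in 20 and 1, with 38 equal, nearly all at 0 in both sexes (1.002 ± 0.287). *Glycam1* was higher in females in 44 strains and in males in 10, with 5 equal (3.64 ± 0.835). The permutation p was 6.00e-05 for *Glycam1* and 1e-05 for each of the other members, and without NZW/LacJ the mean of *Glycam1* was 3.95 ± 0.790. The levels of the 2 sexes of a strain were weakly related in rank, with a Spearman rho over the 59 strains of 0.00047 for *Csn3*, 0.08 for *Slc5a5*, 0.31 for *Csn2* and 0.31 for *Glycam1*.

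**Figure D3:**
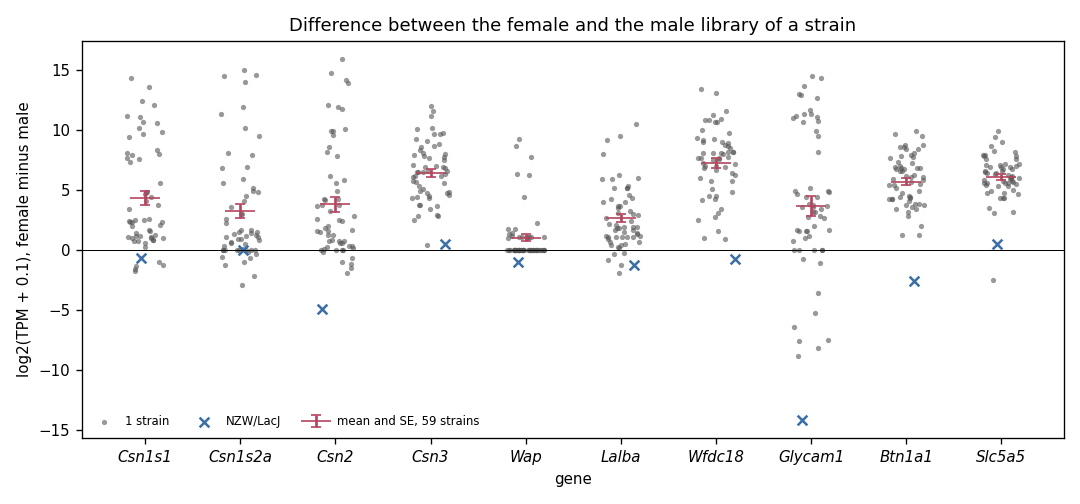
Female minus male difference in log2(TPM + 0.1) for each gene in the 59 matched strains, each point 1 strain, with the mean and SE in red and NZW/LacJ, whose library labelled male goes against its label, as a cross. All points of *Csn3* lie above 0, those of *Wap* crowd at 0, and those of *Glycam1* spread widest to both sides.

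Markers of the mammary epithelium moved with the same contrast. All 12 genes of an epithelial list (*Epcam*, *Cdh1*, *Cldn3*, *Cldn4*, *Cldn7*, *Krt7*, *Krt8*, *Krt18*, *Krt19*, *Esrp1*, *Elf3* and *Spint2*) were called higher in females, with a median log2FC of 6.58 against 0.0115 over all genes tested. Their summed level was 12.8, 636 and 1982 TPM (lowest, median and highest) in female libraries and 2.42, 22.4 and 661 TPM in male libraries. The 12.8 TPM was the BXD69/RwwJ library and the 661 TPM the NZW/LacJ library, and the female sum was above the male sum in 58 of 59 strains, PL/J being the exception. *Cldn3* and *Cldn4* were at 0 in at least 1 female library, and *Cldn3*, *Cldn4*, *Cldn7*, *Krt8*, *Krt18*, *Esrp1* and *Elf3* in at least 1 male library. The 5 basal and myoepithelial genes, among them *Krt5*, *Krt14* and *Trp63*, were also all called higher, with a median log2FC of 6.89. So were all 6 genes listed for luminal progenitor and alveolar cells (median 2.54) and all 9 listed for hormone-sensing luminal cells (median 4.42), among them the progesterone receptor gene *Pgr* at 7.75. In the same fit the 6 adipocyte genes were all called lower in females, with a median log2FC of -0.67. Of the keratinocyte genes 4 of 8 were tested, with 3 higher and 1 lower (median 0.32), and of the skeletal muscle genes 0 of 6 tested were called (median -0.27). The part of these lists in the differences of the members was not tested.

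With the mean log2 CPM of the epithelial list as a covariate, edgeR called 0 of the 6 members, and 4 genes higher and 8 lower over the whole genome (486 and 561 at an unadjusted p under 0.05). The log2FC was then 1.57 for *Slc5a5* (SE 0.816, adjusted p 0.823), 0.71 for *Lalba*, -0.36 for *Csn3*, -0.63 for *Wfdc18*, -1.38 for *Btn1a1* and -1.88 for *Glycam1*. In this fit sex and the covariate rose together, so the standard errors were up to 3.02 (*Glycam1*), and the part of the epithelium in the sex difference cannot be told apart from sex itself.

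Across the 67 female libraries, where sex was labelled alike, the members followed the epithelial list to unequal degrees. Over 10 relations computed, Pearson's r (and Spearman's rho) between the log2 CPM of a gene and the mean of the list was 0.75 (0.60) for *Csn3*, 0.73 (0.58) for *Btn1a1*, 0.72 (0.51) for *Slc5a5* and 0.71 (0.67) for *Wfdc18*, each with a permutation p of 1e-05. Without the 2 libraries farthest from the median of the list, which were BXD69/RwwJ and BXD34/TyJ, r was 0.63 for *Csn3*, 0.59 for *Btn1a1*, 0.46 for *Slc5a5* and 0.61 for *Wfdc18*. The value of *Slc5a5* thus rested in part on those 2 libraries, both at 0 TPM of *Slc5a5*.

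The caseins concentrated in few libraries followed the list less closely. For *Csn1s1* r was 0.33 (permutation p 0.00521) and rho 0.41 (p 0.000550), for *Csn2* 0.30 (p 0.0162) and 0.35 (p 0.00351), and for *Csn1s2a* 0.25 (p 0.0453) and 0.39 (p 0.00123). *Lalba* had an r of 0.24 (permutation p 0.0479) and a rho of 0.29 (p 0.0171). For *Wap* (r 0.19, permutation p 0.0990, rho 0.30, p 0.0154) and *Glycam1* (r 0.25, p 0.0326, rho 0.20, p 0.0964) one of both measures missed an unadjusted 0.05. Leaving out the 2 farthest libraries, r was 0.42 for *Csn1s1*, 0.36 for *Csn2*, 0.34 for *Csn1s2a*, 0.29 for *Lalba*, 0.21 for *Wap* and 0.16 for *Glycam1*. Other lists moved with these caseins as well. Over the 67 females, rho was also taken between the TPM of a member and the mean log2 CPM of a list. For *Csn2* it was 0.72 for prolactin signalling, 0.71 for other milk and secretory genes and 0.60 for high endothelial venules. It was 0.53 for luminal progenitor and alveolar genes and 0.54 for hormone-sensing luminal genes. It was 0.44 for lymphocytes and -0.67 for adipocytes, against 0.38 for the epithelial list. The prolactin list shares *Elf5* with the luminal progenitor and alveolar list and *Prlr* with the hormone-sensing luminal list. For *Csn1s1* rho was 0.69 for prolactin signalling, 0.78 for other milk and secretory genes and -0.58 for adipocytes, and for *Slc5a5* it was 0.28, 0.26 and 0.03. The luminal lists, in the order above, gave 0.62 and 0.50 for *Csn1s1* and 0.33 and 0.25 for *Slc5a5*. These values are descriptions, and the part of those lists in the levels of the members was not tested. Female libraries of like epithelial level could differ widely in these genes: I/LnJ had the highest epithelial sum, 1982 TPM, with 0.203 TPM of *Csn2*, and SWR/J had 1622 TPM with 10037.5 TPM of *Csn2*.

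Likeness among the members was described by Spearman's rho over the 67 female libraries, which share tissue and library type. The 3 calcium-sensitive caseins formed the closest group, with rho 0.91 for *Csn1s1* and *Csn2*, 0.88 for *Csn1s1* and *Csn1s2a* and 0.87 for *Csn1s2a* and *Csn2*. *Csn1s1* and *Wap* had a rho of 0.73. *Csn3*, although it lies at the same locus, was closest to *Btn1a1* at 0.83 and to *Lalba* at 0.72, and had 0.68 with *Csn1s1* and 0.55 with *Csn2*.

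*Slc5a5* stood apart from the milk proteins within females. Its rho was -0.10 with *Csn1s1*, -0.14 with *Csn1s2a*, -0.16 with *Csn2* and -0.11 with *Wap*, and between 0.01 and 0.24 with the other five, the highest being *Csn3*. In SWR/J, the highest casein library, *Slc5a5* was at 12.6 TPM and ranked 27 of 67, and in SJL/J it was at 2.21 TPM and ranked 61. In A/J, second in *Slc5a5* at 74.9 TPM, *Csn2* was at 0. With the 2 libraries against their label set aside, rho was -0.20 with *Csn2* and 0.16 with *Csn3*.

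**Figure D4:**
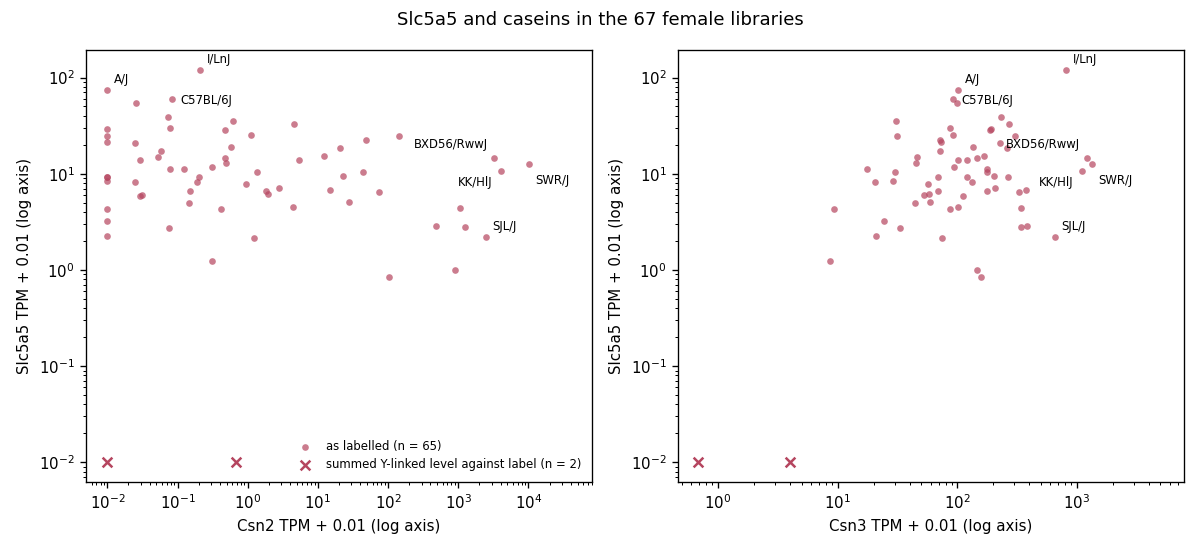
*Slc5a5* against *Csn2* (left) and *Csn3* (right), each as TPM + 0.01 on log axes, in the 67 female libraries, with the 2 libraries against their label as crosses. *Csn2* spans 0 to 10037.5 TPM with a rho of -0.16 to *Slc5a5*, and the libraries highest in *Slc5a5* (I/LnJ, A/J and C57BL/6J) have less than 1 TPM of *Csn2*.

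The genes whose pattern over the 67 females was most like each tested member differed between the groups as well. For *Csn1s1* they were *Zfp239* (rho 0.82), *Timd2* (0.82) and *Elf5* (0.81), the last a transcription factor of alveolar cells, and for *Csn2* they were *Ogfrl1* (0.81), *Hepacam2* (0.81) and *Timd2* (0.80). For *Csn3* they were *Folr1* (0.85), a folate receptor, *Lcn2* (0.84) and *Aldoc* (0.79), and for *Lalba* *Cdhr1* (0.74), *Folr1* (0.66) and *Spp1* (0.65). *Btn1a1* was most like the sodium channel subunit genes *Scnn1g* (0.87) and *Scnn1b* (0.86) and the proton pump gene *Atp6v1b1* (0.85), and *Wfdc18* most like the connexin gene *Gjb2* (0.84), *Mex3a* (0.83) and *Shmt1* (0.82). *Slc5a5* was most like *Cyp3a57* (0.83), *Gipc2* (0.82) and the aquaporin gene *Aqp5* (0.80). *Csn1s2a* and *Wap* did not pass the filter and have no such list.

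*Glycam1* was compared with genes of lymph nodes, where it is also made. Its nearest gene over the 67 females was *Chst4* (rho 0.91), a sulfotransferase of high endothelial venules, followed by *Oit1* (0.88) and the phospholipase gene *Pla2g4f* (0.87). The KK/HlJ female departed from this, with 373 TPM of *Glycam1* beside 0 TPM of *Chst4* and a summed lymphocyte list (9 genes) of 13.1 TPM, where the median female library had 42.996 TPM.

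The rho of *Glycam1* with the mean log2 CPM of the 9-gene lymphocyte list was 0.81 in females and 0.77 in males. With the mean of 4 high endothelial venule genes it was 0.85 and 0.78. The lymphocyte list itself summed to between 4.78 and 1505 TPM in females and between 3.48 and 1125 TPM in males, and edgeR called 0 of its 9 genes between the sexes (median log2FC 0.57). Of the venule genes, 2 of 4 were called higher in females, *Madcam1* at 1.18 and *Chst2* at 0.40, and *Chst4* had a log2FC of 1.14 (adjusted p 0.147). With the lymphocyte list as a covariate, the log2FC of *Glycam1* was 3.54 with a smaller SE of 0.254 (adjusted p 5.13e-18), and the other 5 tested members stayed between 3.02 and 8.11.

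Of the 12 genes listed for prolactin signalling, 11 were tested, 7 were called higher in females and 1 lower, with a median log2FC of 0.31. The receptor gene *Prlr* rose by 4.42 on the log2 scale (SE 0.215) and *Elf5* by 5.64 (SE 0.269). *Stat5a* at 0.44 and *Stat5b* at 0.15, the transcription factors that the receptor activates, were called with far smaller differences, as were the feedback inhibitors *Socs2* (0.32) and *Socs3* (0.62) and *Nfib* (0.19). *Nr3c1*, the glucocorticoid receptor gene, was lower at -0.16, whereas *Jak2* (0.06), *Socs1* (0.31) and *Cish* (0.01), a STAT5 target, did not pass the threshold. The hormone gene *Prl* was not tested, and it had 3 counts or more in 3 of 67 female libraries.

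Of 18 other milk and secretory genes, 14 were tested, 12 were called higher in females and 1 lower, with a median log2FC of 2.77. The milk fat globule gene *Muc15* was at 7.78 (SE 0.406), the water channel gene *Aqp5* at 7.70 (SE 0.419), *Plet1* at 6.61 and the lactoferrin gene *Ltf* at 6.23. Genes that adipose tissue of both sexes also expressed differed little, with *Mfge8* at 0.41 (median 318 TPM in females and 232 TPM in males) and *Xdh*, the xanthine oxidoreductase of the milk fat globule, lower at -0.22. *Muc15* ranged from 0.0513 through 20.5 to 422 TPM in females, and its highest library was SWR/J.

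Of 14 genes of iodide handling in the thyroid and elsewhere, 5 were tested, 1 was called higher in females (the chloride channel gene *Ano1*, 1.88) and 1 lower (the thyrotropin receptor gene *Tshr*, -0.58), with a median log2FC of 0.21. The thyroglobulin gene *Tg*, a defining gene of thyroid tissue, did not pass the filter, with a female median of 0.119 TPM and a highest level of 1.36 TPM. The summed level of these 14 genes lay between 17.1 and 180 TPM in females and between 20.2 and 119 TPM in males.

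Females of the 32 BXD strains were compared with the 35 other females to ask whether the recombinant set from C57BL/6J and DBA/2J differs in these genes. The other females include those of C57BL/6J and DBA/2J themselves and of the AXB and BXA, BXH and CXB sets. The fit held no term for relatedness between strains. edgeR called 0 of the 8 members tested in either direction, where 7.60% of 16929 genes were called higher in BXD and 3.34% lower, although all 8 had a log2FC (BXD vs. others) below 0 and 4 had an unadjusted p under 0.05. *Wfdc18* was at -1.13 (SE 0.447, adjusted p 0.0890), *Csn1s1* at -2.38 (SE 1.02, adjusted p 0.117), *Csn3* at -0.84 (SE 0.379, adjusted p 0.144) and *Csn2* at -2.34 (SE 1.16, adjusted p 0.183). *Lalba* was at -0.78, *Glycam1* at -0.73, *Btn1a1* at -0.52 and *Slc5a5* at -0.52 (SE 0.379). The median over the 8 was -0.81, against 0.01 over all genes tested.

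By median, the inbred strains were above the BXD and the AXB and BXA sets for the caseins. For *Slc5a5* the inbred median lay below that of BXD and above that of AXB and BXA. The upper quartile of *Slc5a5* was highest in the inbred set, at 24.5 TPM, against 14.9 TPM in BXD and 11.1 TPM in AXB and BXA. Median *Csn1s1* was 85.5 TPM in 21 inbred, 0.797 TPM in 32 BXD and 0.589 TPM in 9 AXB and BXA females, and median *Csn2* was 20.8, 0.298 and 0.2996 TPM in the same sets. Median *Csn3* was 235, 72.5 and 87.3 TPM. Median *Slc5a5* was 9.34, 10.4 and 7.77 TPM, with the ranges of all 3 sets overlapping for every gene named here. These set medians and quartiles are a description with no test.

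Without the filter, 10 members were tested and *Wap* was called lower in BXD at -3.83 (SE 0.914, adjusted p 0.00205), where 4.15% of 31305 genes were, and 7 of 35 other females but 1 of 32 BXD females had 3 counts or more. When the 4 strains highest in caseins were left out, *Csn2* at -4.09 (edgeR adjusted p 0.00667) and *Lalba* at -1.70 (adjusted p 0.0411) were called lower in BXD. In that fit 428 of 16860 genes were called lower. Those strains were picked by the levels of the members themselves. Among them is BXD56/RwwJ, the highest BXD female library for both genes, so these calls cannot test a difference of the BXD set. Skeletal muscle genes, of which 5 of 6 tested were called higher in BXD (median log2FC 3.30), moved with the same contrast. The muscle list summed to between 3.83 and 16677 TPM over the female libraries, and its part in the result was not tested. Without BXD34/TyJ and BXD69/RwwJ, 0 of the 8 members were called, and the calls over all 17009 genes tested fell from 1287 higher and 565 lower to 338 and 357.

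Whether the sex difference itself differed between BXD and other strains was tested as an interaction in the 59 matched strains. edgeR called 0 of the 6 members tested and 0.00% of 16765 genes, with 149 genes above and 165 below 0 at an unadjusted p under 0.05. The difference between the log2FC values (BXD minus other) was -0.95 for *Csn3* (SE 0.723), -0.83 for *Lalba*, -0.71 for *Wfdc18*, 0.16 for *Glycam1* (SE 1.76), 0.79 for *Btn1a1* and 0.71 for *Slc5a5* (SE 0.751), each with an adjusted p of 0.9999. The standard errors leave room for differences of several-fold.

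The 2 male libraries described next were BXD15/TyJ and PL/J. The male of BXD15/TyJ, a strain with a male library alone, had the highest male *Csn1s1* (39.6 TPM), *Csn1s2a* (75.5 TPM), *Csn2* (78.2 TPM), *Lalba* (10.1 TPM) and *Wap* (0.212 TPM, 3 counts), and 26.9 TPM of *Csn3*. The male libraries next to it were NOD/ShiLtJ for *Csn1s1*, at 1.33 TPM, and C3H/HeJ for *Csn1s2a*, at 0.990 TPM, whereas for *Csn3* AXB19b/PgnJ was close to it at 25.8 TPM. The epithelial list of BXD15/TyJ summed to 32.6 TPM, near the male median of 22.4 TPM, and its *Slc5a5* was 0.228 TPM. The PL/J male had another composition, with 48.5 TPM of *Csn3*, 29.01 TPM of *Wfdc18*, 274 TPM of *Glycam1* and 17.03 TPM of *Slc5a5*, but 0.393 TPM of *Csn1s1* and 1.27 TPM of *Csn2*. Its epithelial list summed to 389 TPM, above the 293 TPM of the PL/J female, and its *Slc5a5* was above the 2.81 TPM of that female. The PL/J male also had the lowest Y-linked sum of the males as labelled, 164 CPM, and the part of that in its mammary genes was not tested.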

How the data were processed

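RNA-seq libraries of mouse iWAT were used as deposited. The authors quantified reads with kallisto 0.46.1 (per the labels, genome build mm10; per the study's methods, the Ensembl release 97 transcriptome) and summed transcripts to genes. The deposited estimated counts were not normalized between libraries, 30.3% of the values were not whole numbers, and they were rounded here. The deposited TPM values were scaled by the authors for transcript length to 1000000 per library and carry no depth. kallisto splits reads between near-identical transcripts. No sequencing batch was given in the labels.

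Of 36558 Ensembl identifiers, 35856 were paired with a symbol through the GENCODE annotation of GRCm38. Sex was tested in 59 matched strains with edgeR 4.0.16 (R 4.3.3) after filterByExpr and TMM, with strain as a term (~ Strain + Sex), as in the study's methods. Since the labels pair both sexes by strain, strain is the replicate block. BXD against other females and the interaction with sex were fitted likewise. P-values were adjusted over every gene tested (Benjamini-Hochberg), with a threshold of 0.05, and each SE was derived from the log2FC and its F statistic. In the sex and interaction fits with strain as a term, p-values and SEs measure how the difference between the sexes varies from strain to strain. In the BXD fit they measure the spread between single mice of different strains. Differences within strains were tested on log2(TPM + 0.1) by sign permutation, and relations to the epithelial list by permutation, with 100000 resamples (Python 3.11.15, scipy 1.17.1). The members, gene lists and tests were chosen with earlier results of these data known. Named genes were all 10 members, the 3 genes most alike to each tested member, and genes of the lists. Alternatives were library totals, RLE, no filter, at least 10 counts in 70% of libraries, DESeq2 1.42.0, limma 3.58.1 on voom and TPM values, no strain term, and the fits without libraries against their label. Leaving out the 4 strains highest in caseins, leaving out PL/J, and the lymphocyte and epithelial covariates were chosen after seeing the data. The sex and BXD fits were also run on simulated data. Those data were drawn from genes that passed the filter, with smaller spreads and changes than many members had. That run thus does not test the fits on the members. Floors cover counting error only. Some genes of the lists are not reported here.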

Additional observations from a re-analysis of the deposited data

Results flagged for a closer look

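In 3 cases a single library stood apart from the rest of its group, each time the highest of the 9 female AXB and BXA libraries by a gap that is large against the range of the group. *Csn1s1* was at 8.78 TPM in AXB13/PgnJ, with 3.75 TPM in the next library. *Lalba* was at 11.2 TPM in AXB19a/PgnJ, with 4.78 TPM in the next. *Slc5a5* was at 30.2 TPM in BXA8/PgnJ, with 11.8 TPM in the next. Groups of 4 to 10 libraries were examined for 9 combinations of group and gene. The cut-off on the gap assumes a normal spread, but it was applied to TPM, which is skewed towards high values. In this group *Csn1s1* had a mean of 1.78 TPM and a median of 0.589 TPM. How often chance alone flags a highest library is thus not known, and the gaps were not examined on a log scale. Each of these is 1 mouse, and a different strain stood apart for each gene. The values remain within the range of the other female libraries, which reached 5059 TPM for *Csn1s1*, 308 TPM for *Lalba* and 120 TPM for *Slc5a5*.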

How the results depend on the processing

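The number of members called higher in females, 6, became 10 without a filter on low counts. It became 1 with at least 10 counts in 70% of libraries, where fewer members were tested and 4398 of 15390 genes were called higher. With the epithelial list as a covariate it became 0. That covariate turned the direction of *Csn3* (-0.36), *Wfdc18* (-0.63), *Glycam1* (-1.88) and *Btn1a1* (-1.38) for female vs. male, and of *Glycam1* (0.014) and *Slc5a5* (0.27) for BXD vs. other females. The cause was not tested. The number called lower in BXD females, 0, became 1 without a filter (*Wap*), 2 without the 4 strains highest in caseins, and 1 with the lymphocyte list as a covariate (*Csn1s1*, -3.17, edgeR adjusted p 0.0462). Over all genes tested, 1300 of 31305, 428 of 16860 and 743 of 16929 were called lower in BXD, in the same order. The 4 strains left out were picked by the levels of the members themselves. The number of members whose r and rho with the epithelial list both had an unadjusted permutation p under 0.05 was 8, and 5 without the 4 strains highest in caseins. The interaction of *Glycam1* became -0.12 without the strain with a library against its label. The 45 other recomputed summary values stayed within 1.5 times or on their side, and 189 values of single genes kept direction and side, with 4 weaker and 4 stronger calls. Over all genes tested, the split of 4759 higher and 4988 lower in females became 7410 and 2774 with library totals and 5354 and 2878 with limma on log2(TPM + 1). That of 1287 higher and 565 lower in BXD females became 338 and 357 without BXD34/TyJ and BXD69/RwwJ, 457 and 592 with DESeq2, 798 and 674 with library totals, 72 and 288 with limma on log2(TPM + 1), and 2800 and 1300 without a filter, and both counts also fell by more than 1.5 times with the epithelial covariate. Library totals in place of TMM moved the median log2FC of all genes from 0.01 to 0.12, and no tested member changed direction. Over all alternatives other than the epithelial covariate, the log2FC of *Slc5a5* lay between 3.29 and 8.48, and that of *Lalba* between 1.75 and 4.99, each called every time it was tested. Without the replicate block of strain, no call of a member was lost. Depth limits *Wap*, *Csn1s2a*, *Csn2* and *Csn1s1*, which were below 3 counts in many libraries. Each strain has 1 library per sex, so strain levels carry no error of their own.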
